A study of Mus musculus with 8 samples.

Results

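Expression of nucleic acid sensors and necroptosis genes was described in tumor endothelial cells (TECs) sorted from B16-F10 melanomas of mice given agonistic CD40 mAb or an isotype antibody. The 10 genes were chosen by their symbols as listed RNA or DNA sensors or necroptosis genes. All 10 were among the 20057 genes of the file, and all 10 were among the 12969 genes tested, which had more than 10 normalized reads in the mean of the higher group. The B16-F10 cell line, a transplantable mouse melanoma, was grown under the skin of male C57BL/6 mice that were 8 weeks old and received 250000 cells each. Treated mice were given 30 µg of the agonistic CD40 antibody FGK4.5 next to the tumor on each of 2 occasions, days 13 and 16, and control mice the same amount of the rat IgG2a antibody 2A3. According to the labels, TECs were sorted 1 day after the last injection as live cells without CD45, which marks leukocytes, and with CD31, which marks endothelium. Each library represents about 100000 sorted cells of 1 tumor. Libraries bear the names of the mice, 5N, 6L, 6R and 10N in the agonistic CD40 mAb group (n = 4) and 5L, 7N, 8N and 9L in the isotype control group (n = 4).

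Nucleic acid sensors recognize RNA or DNA that is foreign in its structure or out of place in the cell. In the cytosol, RIG-I-like receptors bind double-stranded RNA and signal through an adaptor on mitochondria to switch on type I interferon (IFN) genes, while other sensors halt translation, start an inflammasome or trigger death of the cell. In necroptosis a kinase phosphorylates a pore-forming protein that breaks the plasma membrane, and many of these sensor genes are themselves IFN-stimulated, so that their transcripts are part of the response of endothelium to IFN.

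Promoter sequences were searched for letters of elements known from IFN-responsive genes. Promoters of RefSeq transcripts (GRCm38.p6), running from 250 bases before to 50 bases after the start, were given for 8 of the 10 genes, and Zbp1 and Dhx58 have no entry. The core of the IFN-stimulated response element (ISRE), GAAANNGAA, was searched on both strands. It was found in the promoters of Ddx58, Ifih1, Eif2ak2 and Ripk3 and not in those of Tlr3, Mlkl, Aim2 and Mavs, whereas 8.56% of all 32851 promoters held it. A stricter form with 1 more A at its 3′ end was in 3.44% of all promoters, and of the 4 genes only Ripk3 lacked it. The stretches of at most 29 bases around the cores are shown because only these 4 of the 8 promoters hold the searched letters. All are written 5′ to 3′ on the strand of the gene, which is the minus strand for each of them, with the core in capitals. Capitals that begin with TTC are a core on the opposite strand.
Ddx58: ctgaggcagtTTCGATTTCctatggccag
Ifih1, upstream: agaattcgcgTTCCCTTTCctgtttctca
Ifih1, downstream: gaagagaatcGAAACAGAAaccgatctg
Eif2ak2: ccgccggGAAAACGAAACAGAAgagaacc
Ripk3: cctcttatttGAAAGGGAAgttgtgaagt
The Ddx58 stretch lies at chr4:40239804-40239832 with its core 3 bases after the start. In Ifih1 a core lies 112 bases before the start within chr2:62646349-62646377, and a further core lies 32 bases after it within chr2:62646206-62646233. The capitals of Eif2ak2, at chr17:78882533-78882561, hold a pair of overlapping cores that begin 18 and 24 bases after the start. The Ripk3 stretch lies at chr14:55788825-55788853 with its core 14 bases after the start. A match of letters is a description and does not show that a factor binds there.

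The IFNγ-activated site (GAS), TTCNNNGAA, reads the same on both strands and was found only in the promoter of Eif2ak2 among the 8, at 178 bases before the start, while 8.30% of all promoters held it. The 250 bases upstream of Ifih1 (chr2:62646256-62646505) and of Eif2ak2 (chr17:78882573-78882822), both on the minus strand, are shown because they are the ones in which a searched motif lies before the start. Capitals mark the ISRE core in Ifih1 and the GAS letters in Eif2ak2.
Ifih1: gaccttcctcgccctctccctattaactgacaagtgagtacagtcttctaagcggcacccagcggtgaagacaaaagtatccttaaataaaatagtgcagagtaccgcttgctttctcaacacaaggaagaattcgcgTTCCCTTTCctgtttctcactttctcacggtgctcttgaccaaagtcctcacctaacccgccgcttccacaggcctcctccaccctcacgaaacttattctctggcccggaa
Eif2ak2: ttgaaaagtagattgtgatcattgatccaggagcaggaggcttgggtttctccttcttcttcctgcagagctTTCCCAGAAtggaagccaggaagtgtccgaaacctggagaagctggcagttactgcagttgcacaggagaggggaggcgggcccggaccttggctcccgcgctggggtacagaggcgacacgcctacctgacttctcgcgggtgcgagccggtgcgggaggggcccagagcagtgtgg
The 250 bases had a GC content of 50.0% in Ifih1 and 60.0% in Eif2ak2.

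The values are normalized reads, that is, gene counts divided by 1 size factor per library. Between 2971689 and 64938728 reads per library fell on genes, with 3 isotype control libraries (5L, 7N and 8N) being the shallowest. Libraries carry no molecular identifiers, so limits drawn from reads cover counting error only. All 14 endothelial markers were tested, including Pecam1, which encodes CD31, with means of 10760 normalized reads in the treated and 9071 in the control group. Ptprc, which encodes CD45, stood at 9.99 and 2.52, while the summed 10 leukocyte markers, mostly Lcp1 and Arhgdib, ranged from 2649 to 3061 normalized reads in the treated and from 2588 to 2962 in the control libraries. Of the T and NK cell and of the B and dendritic cell markers 1 each, Cd3d and Siglech, had 0 reads in all 8 libraries. The summed T and NK cell markers, mostly Lck, ranged from 38.5 to 78.1 normalized reads in the treated and from 35.7 to 53.3 in the control libraries, and the B and dendritic cell markers, mostly Zbtb46 and Clec9a, from 272 to 404 and from 215 to 349. Transcripts of melanoma cells and of fibroblasts and mural cells were nevertheless abundant, with summed levels of the 10 melanoma markers between 47853 and 122820 and of the 12 fibroblast and mural markers between 60198 and 166420 normalized reads. In bulk RNA, fewer cells of a type and less RNA per cell cannot be told apart. Library 5L had the fewest reads, the lowest endothelial sum (49047), the lowest fibroblast and mural sum (60198) and the highest melanoma sum (122820) of the 8.

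Zbp1 was the gene of the group that was higher after agonistic CD40 mAb treatment, with a group mean 2.70-fold that of isotype control. None of the other 9 genes passed the threshold, which asked for group means that differ at least 1.5-fold in either direction and an unadjusted limma p of at most 0.05. Among all 12969 genes tested, 1.28% passed it with higher values after agonistic CD40 mAb and 0.239% with lower values, 1.52% in all. Without library 5L these shares were 1.24% and 0.945%. The ratio was above 1 for 7 of the 10 genes, against 46.9% of all genes tested. The median log2 fold change of the 10 genes was 0.17, of the 9 genes other than Zbp1 0.14 and of all genes tested 0.00. That of the 14 endothelial markers was 0.13 (0.04 without 5L), with 13 of 14 above 0, and their part in the members' values was not tested. Only Zbp1 separated the groups without overlap, as did 1.57% of all genes tested.

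**Figure D1:**
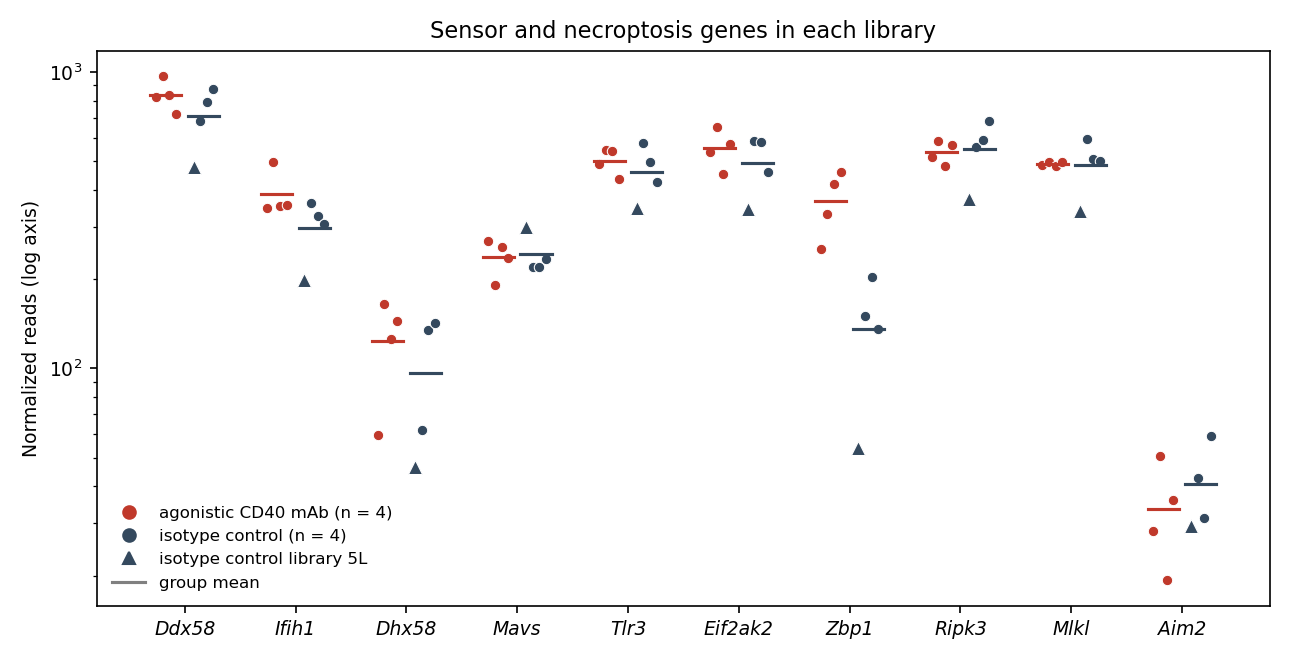
Normalized reads (log axis) of the 10 genes in each library, with agonistic CD40 mAb in red, isotype control in blue, a triangle for isotype control library 5L and a line at each group mean (n = 4 per group). Zbp1 is the gene whose 4 agonistic CD40 mAb libraries, 252 to 461, all lie above the 4 isotype control libraries, 53.8 to 203.

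ZBP1 senses nucleic acids in the left-handed Z conformation and, once bound, recruits RIPK3 to start necroptosis. The gene lies on the minus strand at chr2:173206612-173218923 (mm10, GENCODE M21) and has 3529 exonic bases, none of whose 50-base windows occur in another gene's transcripts. In the agonistic CD40 mAb libraries 5N, 6L, 6R and 10N it stood at 252, 330.4, 419 and 461 normalized reads. In the isotype control libraries 5L, 7N, 8N and 9L the values were 53.8, 149.9, 203 and 136. Every treated library was above every control library, the nearest being 5N and 8N, and 5L was far below the other controls. The group means were 366 ± 93.3 and 136 ± 61.7 (SD, n = 4), and the log2 fold change was 1.54 ± 0.36 (SE), with a limma p of 0.00139, the 46th lowest among all genes tested. The 95% interval of the fold change ran from 1.67 to 5.02. The adjusted p of limma over all genes was 0.384, and it was 0.200 with edgeR and 0.0025 with DESeq2 on the recovered reads, within a range of 0.0025 to 1 over the 21 alternatives tried. A two-sided exact permutation test gave p = 0.0286, the smallest that 4 against 4 libraries allow.

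The value of Zbp1 in 5L rests on 22 reads, while the other isotype control libraries held 63, 149 and 626 reads and the agonistic CD40 mAb libraries between 696 and 2138. Without 5L the isotype control mean was 163 ± 35.4, the ratio 2.25 and the log2 fold change 1.15 ± 0.22 (SE), which still passed the threshold. Among markers of other cells, 8 of 12 macrophage and monocyte markers had a log2 fold change above 0, with a median over the list of 0.55 (0.43 without 5L), and Mrc1 passed the threshold, at 39.0 against 22.4 normalized reads. The summed level of these 12 markers was 348 to 604 in the agonistic CD40 mAb libraries and 234 to 555 in the isotype control libraries, and none of them was at 0 in all libraries. Of the 10 melanoma markers 0 had a log2 fold change above 0 (median -0.08, or 0.19 without 5L). Of the 12 fibroblast and mural markers 5 did (median -0.07, or -0.36 without 5L). The part of any of these marker lists in the Zbp1 result, and in those of Ctss, Casp1 and Irf8 given further on, was not tested.

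RIG-I, encoded by Ddx58 (chr4:40203773-40239828, minus strand, 7050 exonic bases), binds short double-stranded RNA with 5′ phosphates. Its level was 822, 969, 837 and 722 normalized reads in 5N, 6L, 6R and 10N. With isotype control it was 477, 685, 794 and 879 in 5L, 7N, 8N and 9L. The groups overlapped, with 5L lowest and 6L highest. The means of 837 ± 101 and 709 ± 174 (SD, n = 4) gave a log2 fold change of 0.27 ± 0.18 (SE, limma p = 0.172, exact permutation p = 0.257), with a 95% interval of the fold change from 0.909 to 1.60.

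MDA5, encoded by Ifih1 (chr2:62595798-62646255, minus strand, 8165 exonic bases), recognizes long double-stranded RNA. It was measured at 349, 496, 352 and 355 normalized reads in 5N, 6L, 6R and 10N and at 198, 362, 325 and 306 in 5L, 7N, 8N and 9L. Library 6L stood well above the other 3 treated libraries, 5L was lowest, and 7N exceeded 3 of the treated libraries. Mean levels were 388 ± 72.0 and 298 ± 70.4, the log2 fold change was 0.40 ± 0.20 (SE, limma p = 0.0725, exact permutation p = 0.114), and the 95% interval of 0.970- to 1.79-fold includes both no difference and 1.5-fold.

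LGP2, encoded by Dhx58 (chr11:100694884-100704271, minus strand, 3272 exonic bases), lacks the signaling domain of RIG-I and MDA5 and modulates both. Levels were 59.7, 165, 126 and 145 normalized reads with agonistic CD40 mAb (5N, 6L, 6R, 10N) and 46.4, 61.9, 135 and 142 with isotype control (5L, 7N, 8N, 9L). Each group held low and high libraries, with 5N, 5L and 7N low and the other 5 between 126 and 165. The means of 124 ± 45.7 and 96.2 ± 49.1 gave a log2 fold change of 0.42 ± 0.41 (SE, limma p = 0.330, exact permutation p = 0.4), and its interval of 0.711- to 2.52-fold is the widest of the 10 on the log2 scale. Of its exonic bases 4.31% are overlapped by exons of Dhx58os on the other strand, and reads of the kit used carry no strand, so the reads of the overlap cannot be divided between them.

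MAVS is the mitochondrial adaptor through which RIG-I and MDA5 signal. The gene (Mavs, chr2:131234063-131248025, plus strand, 3345 exonic bases) stood at 269, 191, 256 and 236 normalized reads in 5N, 6L, 6R and 10N and at 301, 219, 221 and 234 in 5L, 7N, 8N and 9L. It was highest in 5L and lowest in 6L, the reverse of Ddx58, Ifih1, Dhx58 and Eif2ak2. The means were 238 ± 34.1 and 244 ± 38.7, the log2 fold change was -0.03 ± 0.16 (SE, limma p = 0.850, exact permutation p = 0.886), and the interval ran from 0.763- to 1.25-fold.

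TLR3 detects double-stranded RNA inside endosomes. Tlr3 (chr8:45395665-45411080, minus strand, 5207 exonic bases) reached 487.5, 545, 540.3 and 436 normalized reads in 5N, 6L, 6R and 10N and 347, 576, 495 and 424 in 5L, 7N, 8N and 9L. The highest and the lowest library were both controls. The log2 fold change was 0.14 ± 0.16 (SE, limma p = 0.400, exact permutation p = 0.486), between means of 502 ± 51.5 and 461 ± 97.8, with an interval of 0.860- to 1.42-fold. Exons of Gm45542 on the other strand overlap 7.32% of its exonic bases.

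PKR, encoded by Eif2ak2 (chr17:78852564-78882573, minus strand, 5113 exonic bases), is a kinase that binds double-stranded RNA and blocks translation by phosphorylating eIF2α. Treated libraries 5N, 6L, 6R and 10N held 535, 651, 451 and 573 normalized reads, and control libraries 5L, 7N, 8N and 9L held 345, 583, 579 and 461. The groups overlapped, again with 5L lowest and 6L highest. Mean levels of 553 ± 83.0 and 492 ± 113 gave a log2 fold change of 0.19 ± 0.19 (SE, limma p = 0.335, exact permutation p = 0.486), with an interval from 0.857- to 1.51-fold. Exons on the other strand, mainly of Gm26637, overlap 4.32% of its exonic bases.

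RIPK3 is the kinase that receives the signal from ZBP1 and from TNF or Toll-like receptors and activates MLKL. Ripk3 (chr14:55784995-55788865, minus strand, 2292 exonic bases) was at 516, 583, 481 and 568 normalized reads with agonistic CD40 mAb, in the order 5N, 6L, 6R and 10N. With isotype control it was at 371, 557, 588 and 680.4 in 5L, 7N, 8N and 9L. The treated libraries lay inside the range of the controls. The means were 537 ± 47.4 and 549 ± 130, the log2 fold change was -0.00 ± 0.18 (SE, limma p = 0.992, exact permutation p = 1), and the interval of 0.762- to 1.31-fold excludes a 1.5-fold difference in either direction.

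MLKL is the executor of necroptosis, which inserts into the membrane once RIPK3 has phosphorylated it. Mlkl (chr8:111311797-111338177, minus strand, 2303 exonic bases) was at 486, 497, 481 and 496 normalized reads in 5N, 6L, 6R and 10N and at 339.7, 592, 506 and 501 in 5L, 7N, 8N and 9L. The 4 treated libraries lay within a narrow band, with a coefficient of variation of 1.58% against 21.7% among the controls. Group means were 490 ± 7.76 and 485 ± 105, with a log2 fold change of 0.04 ± 0.16 (SE, limma p = 0.796, exact permutation p = 1). The interval of 0.804- to 1.32-fold again excludes a 1.5-fold difference in either direction, as do those of Mavs and Tlr3.

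AIM2 binds double-stranded DNA in the cytosol and assembles an inflammasome. Aim2 (chr1:173350879-173466040, plus strand, 3501 exonic bases) was the lowest of the 10 genes, with 28.3, 50.5, 19.3 and 36.0 normalized reads in 5N, 6L, 6R and 10N and 29.3, 42.8, 31.3 and 59.2 in 5L, 7N, 8N and 9L. These values rest on between 12 and 273 reads per library, and the groups overlapped. The means of 33.5 ± 13.3 and 40.7 ± 13.7 gave a log2 fold change of -0.30 ± 0.35 (SE, limma p = 0.413, exact permutation p = 0.457), with an interval from 0.476- to 1.39-fold. All 9 genes other than Zbp1 had a limma adjusted p of 1.00 over all genes tested.

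**Figure D2:**
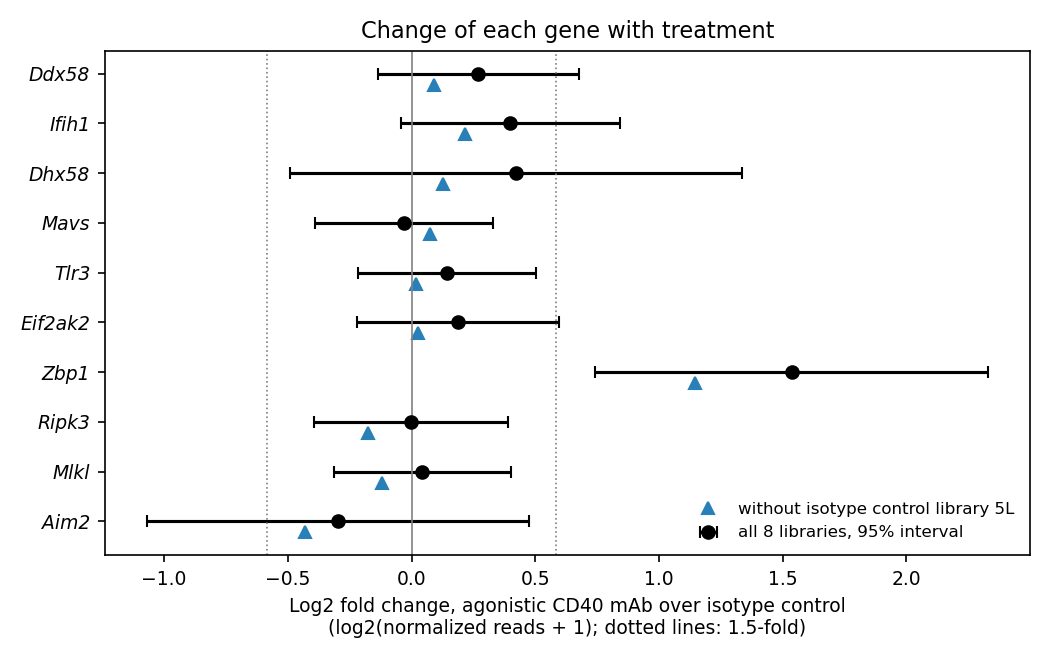
Log2 fold change of each gene, agonistic CD40 mAb over isotype control, on the log2(normalized reads + 1) scale, with 95% intervals from limma (circles, n = 4 per group) and the value without isotype control library 5L (triangles). The dotted lines mark 1.5-fold, and Zbp1 at 1.54 is the one gene whose interval lies wholly above it.

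Library 5L moved with these results. It was the lowest of the 8 libraries for 8 of the 10 genes, all but Aim2 and Mavs, whereas it was lowest for 29.7% of all genes tested. Library 6L was the highest for 4 of the 10 genes, Ddx58, Ifih1, Dhx58 and Eif2ak2, and for 15.1% of all genes tested. The median distance of the 10 genes from their own mean was -0.55 in 5L and 0.35 in 6L on the log2 scale. Endothelial markers were also lowest in 5L (49047) and highest in 6L (80368), and their part in these differences was not tested.

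Leaving out 5L lowered the median log2 fold change of the 10 genes from 0.17 to 0.05, and that of all genes tested from 0.00 to -0.01. Zbp1 alone passed the threshold then as well. Ripk3, Mlkl and Aim2 then had log2 fold changes of -0.18, -0.12 and -0.43, and those of Ddx58, Ifih1 and Dhx58 came down to 0.09, 0.22 and 0.13. Mavs was at 0.07, Tlr3 at 0.02 and Eif2ak2 at 0.03. Leaving out other libraries moved several genes the other way, to a log2 fold change of 0.74 for Dhx58 without 5N, 0.50 for Ifih1 without 7N, 0.26 for Tlr3 without 7N, 0.38 for Ddx58 without 9L, 0.28 for Eif2ak2 without 6R and -0.07 for Aim2 without 6R, none of which passed the threshold. Scaling the libraries to the endothelial markers, chosen after seeing the data, moved all genes by nearly the same amount and shifted their median by -0.13. With that shift the log2 fold change was 1.40 for Zbp1 and -0.09 for Mlkl. The same scaling gave 0.13 for Ddx58, 0.27 for Ifih1, 0.29 for Dhx58, 0.0091 for Tlr3, 0.053 for Eif2ak2, -0.14 for Ripk3, -0.43 for Aim2 and -0.17 for Mavs.

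**Figure D3:**
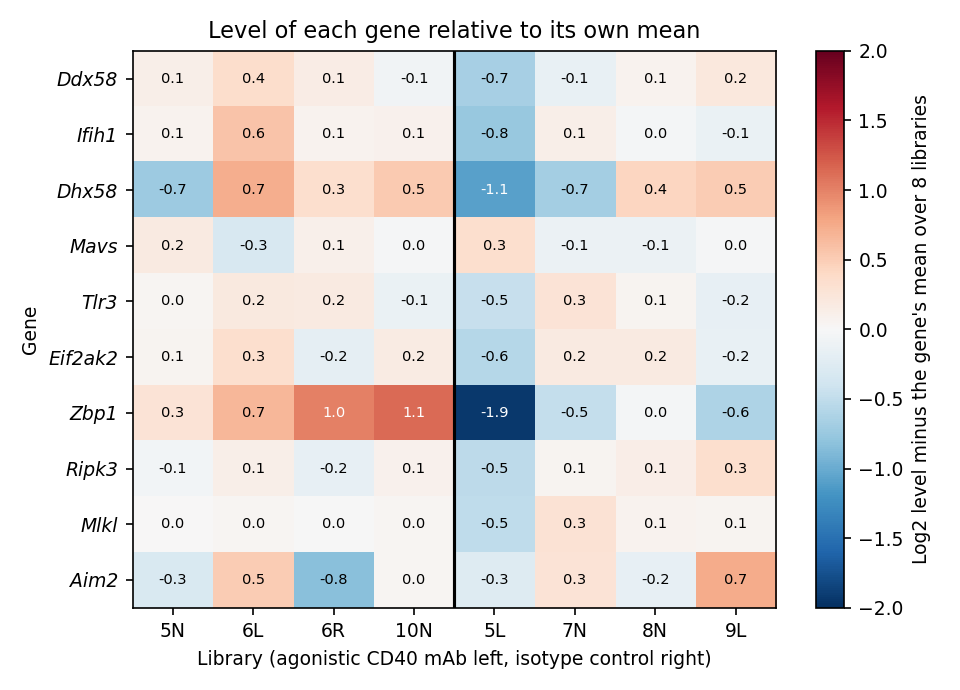
Level of each gene in each library as log2(normalized reads + 1) minus the gene's mean over the 8 libraries, with agonistic CD40 mAb libraries left of the line and isotype control libraries right of it. Values below 0 (blue) fill the 5L column except for Mavs, and the Zbp1 row is positive in all 4 treated libraries.

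The change of Zbp1 was also set against that of each other gene within the same libraries, by the difference of their log2 levels. These comparisons were chosen with the rise of Zbp1 known, and they share its values. Relative to Ddx58, Ifih1, Tlr3, Eif2ak2, Ripk3, Mlkl, Aim2 and Mavs, the difference was higher in all 4 treated than in all 4 control libraries (two-sided exact permutation p = 0.0286 each, 0.0321 after adjustment over the 9 comparisons). The sizes on the log2 scale ran from 1.14 against Ifih1 to 1.83 against Aim2, with 1.54 against Ripk3 and 1.49 against Mlkl. Relative to Dhx58 the difference was 1.11 and the libraries overlapped (exact permutation p = 0.0571, also after adjustment). The log2 difference of Zbp1 minus Ripk3 averaged -2.13 with isotype control and -0.59 with agonistic CD40 mAb, and that of Zbp1 minus Mlkl -1.95 and -0.46.

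Levels can be compared between genes only per length, here as normalized reads per kilobase of exonic sequence. In the isotype control libraries, Ripk3 at 240 ± 56.5 and Mlkl at 211 ± 45.8 (SD, n = 4) stood highest. Their ranges overlapped each other and lay above those of all other members. The libraries also held abundant transcripts of melanoma cells and of fibroblasts and mural cells, whose part in this order was not tested. Ddx58 (100.5 ± 24.6), Eif2ak2 (96.2 ± 22.1), Tlr3 (88.4 ± 18.8) and Mavs (72.8 ± 11.6) followed, each overlapping the next. Zbp1 (38.4 ± 17.5), Ifih1 (36.5 ± 8.62), Dhx58 (29.4 ± 15.0) and Aim2 (11.6 ± 3.91) formed the low end, again with neighbours that overlapped, and no Zbp1 value reached those of Mavs. With agonistic CD40 mAb, Zbp1 at 104 ± 26.4 per kilobase was 5th in place of 7th and overlapped Eif2ak2 (108 ± 16.2) above it and Tlr3 (96.4 ± 9.88) below it. The order of the other 9 genes among themselves was the same in both groups.

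The genes with the most similar profiles were found by the Pearson correlation of log2 levels over the 8 libraries, which share depth, composition and treatment group, so the values are descriptions. Zbp1 was closest to Iigp1 (r = 0.9995, Spearman's rho = 1, and 0.9989 after centring each group), an IFN-inducible GTPase, followed by the guanylate-binding protein genes Gbp2 (r = 0.997) and Gbp6 (r = 0.992). The log2 fold changes of these 3 genes were 1.84, 2.13 and 2.23. The nearest genes to Ifih1 were Gbp9 (r = 0.984, log2 fold change 0.81), 3300005D01Rik (0.973) and Ssu2 (0.968). Dhx58 was nearest to Fance (r = 0.991). Next were Isg15 (0.985, log2 fold change 0.23), a ubiquitin-like modifier induced by type I IFN, and Fam98c (0.9815). Those of Ddx58 were Pik3r6, Ier5 and Alox12 (r = 0.987, 0.987 and 0.978) and those of Eif2ak2 were Heca, Tnfaip8l3 and Ctdsp2 (0.985, 0.969 and 0.963). Ripk3 was nearest to Sox12, Etv4 and Cmtm3 (0.989, 0.975 and 0.972), and Mlkl to H19, Bgn and Pla1a (0.990, 0.989 and 0.989). For Tlr3 the nearest were Sorcs1, Stom and Slc2a9 (0.961, 0.961 and 0.957), for Aim2 Clcf1, Zfp944 and Akap6 (0.922, 0.916 and 0.912), and for Mavs Pop1, St13 and Sephs2 (0.979, 0.977 and 0.974).

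Among the 10 genes themselves, the closest pair over the 8 libraries was Ifih1 and Eif2ak2 (r = 0.888, and 0.902 after centring each group). Mavs had a negative r with each of the other 9, from -0.45 with Zbp1 to -0.85 with Eif2ak2. Aim2 had an r between -0.18 and 0.36 with the other members except Ripk3 (0.65) and Mavs (-0.60).

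Other genes of the same pathways were described by 8 lists. Of all genes tested 1.28% passed the threshold with higher and 0.239% with lower values, so a count of 0 in a short list is near these shares. Among regulators of RIG-I-like receptor signaling 1 of 20 genes tested passed the threshold, the IFN-inducible transcription factor Irf7. It stood at 277, 732, 452 and 454 normalized reads in 5N, 6L, 6R and 10N against 183, 195, 399 and 337 in 5L, 7N, 8N and 9L, so the groups overlapped. Its ratio was 1.72 (log2 fold change 0.78 ± 0.32 SE, limma p = 0.0327, exact permutation p = 0.143), and it did not pass when 5L, 7N, 6L, 6R or 10N was left out (limma p between 0.0574 and 0.104), with a log2 fold change of 0.60 without 5L. The deconjugase Usp18, which removes ISG15 and dampens IFN signaling, was at 160.0 against 113 and missed the fold limit with a ratio of 1.42. The abundant helicases Dhx9 and Ddx3x had log2 fold changes of -0.12 and -0.03, and the median of the list was 0.04. DESeq2 on the recovered reads also called the helicase gene Ddx60, so that 2 genes of the list passed with that tool. The limma log2 fold change of Ddx60, 0.93, was 0.43 without 5L, in which it had 6 reads.

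In endosomal TLR signaling 1 of 9 tested genes passed, the cathepsin gene Ctss, a protease of the endosome, with means of 58.8 ± 12.3 and 31.0 ± 14.1 normalized reads (ratio 1.90, limma p = 0.0111, exact permutation p = 0.0857). Its values in the 4 treated libraries were 46.6 to 70.4, overlapping 9L at 51.6. Unc93b1, the chaperone that brings TLR3 to endosomes, had a log2 fold change of 0.27 (exact permutation p = 0.314), and those of the chaperone Hsp90b1 and the protease Lgmn were -0.12 and -0.04. Tlr7, Tlr8 and Tlr9 were under the limit for testing, with 101, 26 and 2 reads in all over the treated and 16, 7 and 5 over the control libraries. Among RNA-sensing TLRs, Tlr3 was thus the one measured at a level that allowed a test. The list's median was 0.07, or 0.03 without 5L.

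For DNA sensing and inflammasomes 1 of 13 tested genes passed, Casp1, the inflammasome protease, with 56.8 ± 14.4 against 35.6 ± 8.63 normalized reads (ratio 1.59, limma p = 0.0309, exact permutation p = 0.0571). Library 5N was the highest at 78.1, and Casp1 did not pass when 5N, 5L, 7N or 8N was left out (limma p between 0.0535 and 0.101), with a log2 fold change of 0.50 without 5N and 0.61 without 5L. Gsdmd, the pore-forming substrate of that protease, stood at 256 ± 6.51 against 180.2 ± 61.2 without overlap of the groups and had a ratio of 1.42, under the limit. Its lowest value, 90.4, was in 5L, and the log2 fold change of 0.59 was 0.28 without that library. The AIM2-like receptor gene Ifi203 and Tmem173, which encodes the adaptor STING, had log2 fold changes of 0.16 each, and of -0.09 and 0.02 without 5L. Ifi202b was at 0 reads in all libraries. The median of the list was 0.30, or 0.12 without 5L. With DESeq2 on the recovered reads, Casp4 passed as well as Casp1. The limma log2 fold change of Casp4, 0.87, was 0.45 without 5L.

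The 2′-5′-oligoadenylate synthetases (OAS) make the messenger that activates RNase L upon double-stranded RNA. Of 10 genes tested in this branch, 2 passed the threshold, Oas2 and Oas1g. Oas2 was at 234, 222, 179 and 171 normalized reads in 5N, 6L, 6R and 10N and at 97.8, 138, 98.0 and 149 in 5L, 7N, 8N and 9L. All 4 treated libraries lay above the controls (ratio 1.67, log2 fold change 0.75 ± 0.20 SE, exact permutation p = 0.0286, limma adjusted p = 0.599). Oas1g had means of 39.9 ± 12.5 and 19.8 ± 7.52 (ratio 2.01, limma p = 0.0172, exact permutation p = 0.0571), but 45.7% of the 50-base windows of its transcripts also occur in other genes, mainly Oas1a, so its reads are uncertain. It did not pass without 6R. Oasl2 had a log2 fold change of 0.42 (exact permutation p = 0.229), or 0.16 without 5L, and the RNase L inhibitor gene Abce1 one of -0.09. The median of the list was 0.49, or 0.23 without 5L.

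Enzymes that keep self nucleic acids from the sensors, such as the RNA editor Adar and the nuclease Trex1, made up a list of 10 tested genes, 0 of which passed the threshold in limma, edgeR or DESeq2. By unadjusted p alone 1 gene passed in each of the 3 tools, Samhd1, a dNTP hydrolase. It stood at 913 ± 33.8 against 670.4 ± 104 normalized reads with no overlap of the groups (ratio 1.36, log2 fold change 0.46 ± 0.13 SE, limma p = 0.00548, exact permutation p = 0.0286). Adar was at 877 ± 84.9 against 742 ± 114 (log2 fold change 0.25, exact permutation p = 0.143).

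The cell death decision list holds the partners of RIPK3 and the switch between survival, apoptosis and necroptosis. Of its 25 genes, 0 passed the threshold and 0 had an unadjusted p of at most 0.05 in limma, edgeR or DESeq2. The lowest p was that of Cflar, an inhibitor of caspase-8, with 1599 ± 89.4 against 1382 ± 81.5 normalized reads (log2 fold change 0.21, limma p = 0.0631, exact permutation p = 0.0571). Caspase-8 itself (Casp8) was at 909 against 908, Ripk1 at 756 against 690 and Fadd at 105 against 117 normalized reads. Tnf was at 20.5 ± 6.78 against 11.5 ± 10.3 (log2 fold change 1.23, or 0.78 without 5L, exact permutation p = 0.171). Its values in 5L and 8N rest on 1 and 2 reads, and it passed the threshold with library weights or without 7N or 9L. Xiap and Tnfrsf1a, the pair with the highest means, were at a log2 fold change of 0.03 and 0.09. The median of the list was 0.13, and 0.04 without 5L.

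Around the substrate of PKR, 0 of 15 genes passed the threshold and 0 reached an unadjusted p of at most 0.05 in limma, edgeR or DESeq2. The list holds the other eIF2α kinases, subunits of eIF2 and eIF2B and the stress response genes downstream, and its median log2 fold change was -0.04, or -0.0047 without 5L. Atf4, the transcription factor of that response, stood at 1881 ± 160 against 1980 ± 164 normalized reads and Atf3 at 610 ± 147 against 518 ± 255, where the log2 fold change of 0.36 was 0.0053 without 5L. The eIF2B subunit gene Eif2b1 had the lowest p of the list (log2 fold change -0.17, limma p = 0.235, exact permutation p = 0.143), and Dnajc3, which encodes an inhibitor of PKR, was at -0.05.

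In IFN signaling, which lies upstream of many sensor genes, 4 of 15 tested genes passed with higher values, among them the transcription factors Irf1 and Irf8 and the feedback inhibitor Socs1. Irf1 was at 784, 941, 1082 and 1330.4 normalized reads in 5N, 6L, 6R and 10N and at 305, 454, 709 and 613 in 5L, 7N, 8N and 9L, so that every treated library lay above every control library. Irf1 (1034 ± 232 against 521 ± 178) and Irf8 (562 ± 131 against 331 ± 69.1) both separated the groups, with an exact permutation p of 0.0286 and limma adjusted p of 0.460 and 0.599. The adjusted p was 0.338 and 0.469 with edgeR and 0.0218 and 0.0877 with DESeq2. Socs1 was low, at 23.7 ± 15.0 against 8.35 ± 5.58 (exact permutation p = 0.0857), and did not pass when 5L, 7N, 6L, 6R or 10N was left out (limma p between 0.0539 and 0.112). The receptor-associated kinase gene Jak1 had a log2 fold change of 0.03, and the median of the list was 0.19, or 0.05 without 5L.

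Transcripts of IFN genes themselves were near the limit of detection. Ifng, Ifna4 and Ifna2 had 0 reads in all 8 libraries, which allows 3 reads in each, or 0.353 normalized reads in the deepest and 7.33 in the shallowest library. For Ifnb1 there were 8 reads in the whole agonistic CD40 mAb group and 0 in the whole isotype control group, and its mean of 0.300 normalized reads with agonistic CD40 mAb is below what 3 reads amount to in each isotype control library (0.650 to 7.33). Over the 8 lists, no gene passed the threshold with a lower value in limma, edgeR or DESeq2. In limma 0.239% of all genes tested did so, and the count in the lists is near that share.

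**Figure D4:**
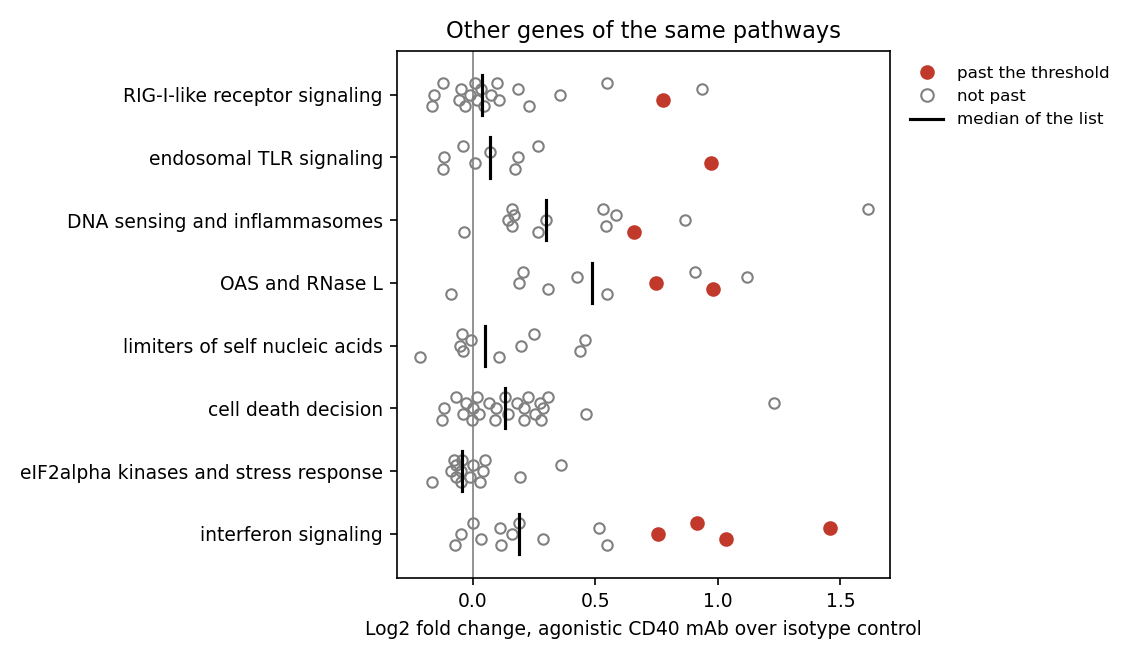
Log2 fold change (agonistic CD40 mAb over isotype control, n = 4 per group) of the tested genes in 8 lists of related pathways, with each gene as a circle, filled where it passed the threshold, and a line at the median of each list. Filled circles all lie on the right of 0, with 4 of 15 in IFN signaling and 2 of 10 in the OAS list. The lists of cell death decision, of eIF2α kinases and of limiters of self nucleic acids have none. Of all genes tested 1.52% passed.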

How the data were processed

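RNA of 8 samples of sorted TECs was sequenced with TruSeq RNA v2 reagents from 10 ng of RNA each. The authors aligned reads to mm10 (TopHat2, with Bowtie2 2.2.1 in the submitters' processing notes), counted them per gene in Partek 6.6 and divided the counts by DESeq2 size factors. The deposited signal values are these normalized reads. Of them, 99.9% lay within 0.1 read of a whole multiple of 1 read, which allowed the reads to be recovered, so that flooring or a correction for harvest day is not visible in them.

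Values were tested as log2(value + 1) with limma 3.58.1 (R 4.3.3), moderated along the trend of variance with expression, with treatment as the only term and Benjamini-Hochberg adjustment over all 12969 genes with a larger group mean above 10. Fold changes on this scale understate those of low genes. Exact permutation tests used all 70 assignments of the libraries. The limma step was tested on simulated data. All mice share 1 sort day in the labels, whereas the study's methods name more than 1 harvest day and a correction for it. The sources used here give no harvest day per mouse, so any difference between harvest days and the groups cannot be told apart. The names of the mice share a number between the groups only in 5N and 5L.

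The genes and the pathway and marker lists were chosen with earlier results of these data known. Named genes were the 10 members and, per list, every gene past the threshold, the 2 of lowest p and the 2 of highest mean, and per member the 3 genes of most similar profile. Others in the text (Ddx60, Casp4, Tlr7, Tlr8, Tlr9, Ifi202b, Trex1, Casp8, Ripk1, Fadd, the IFN genes and the markers named) were chosen after their values were seen. Alternatives were pseudocounts of 0.1 and 10, all genes, a mean limit of 50, recomputed size factors, quantiles made equal between libraries, library weights, robust moderation or no trend in limma, edgeR 4.0.16 and DESeq2 1.42.0 on recovered reads, reads drawn down to the shallowest library, leaving out each library and, chosen after seeing the data, scaling to endothelial markers. Positions are from GENCODE M21 and promoters from RefSeq. Proteins were not analysed here, and a gene that meets the naming rule is not reported here.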

Additional observations from a re-analysis of the deposited data

Results flagged for a closer look

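In each treatment group of 4 libraries, the 10 genes and the named pathway genes were checked for a single library far from the other 3, and 4 of 82 groups of values held one. Chance gives about 1 in 20 groups. Among the sensors this was Ifih1 in the agonistic CD40 mAb group, with 496 normalized reads in library 6L against 355 in the nearest library. Among the pathway genes it was Casp1 in the agonistic CD40 mAb group, with 78.1 in 5N against 52.1 in the nearest library. In the isotype control group, Oasl2 was at 271 in 5L against 561 in the nearest library, and Xiap at 2500.4 in 7N against 1755.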

How the results depend on the processing

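Zbp1 passed the threshold, and none of the other 9 genes did, under all 21 alternatives (for Aim2 20, since it is under a mean limit of 50). Its log2 fold change ranged from 1.15 (without 5L) to 1.78 when single libraries were left out and from 1.17 to 1.54 otherwise. Depth limits the isotype control group, in which 22 reads stand for Zbp1 in 5L. The count of genes passing with higher values (166) was 331 with all genes kept. The count with lower values (31) was 93 with all genes, 13 with a mean limit of 50, 70 with library weights, 57 without the trend, 63 with quantile normalization, 47 with edgeR, 58 with DESeq2, 52 with reads drawn down and 48 with scaling to endothelial markers, and 27 to 123 when single libraries were left out, the highest without 5L. Library weights reversed Mlkl (-0.029), Mavs (0.065), Ddx3x (0.060), Eif2b1 (0.00042), Ifi203 (-0.028), Jak1 (-0.064) and Tnfrsf1a (-0.060) on the log2 scale. They lowered Dhx58 to 0.00063, Eif2ak2 to 0.0044 and Ddx58 to 0.068, and the cause was not tested. Scaling to endothelial markers moves all genes by nearly the same amount and brought the median of all genes tested to -0.13. Through that shift Mlkl (-0.091), Jak1 (-0.10), Tnfrsf1a (-0.041) and Xiap (-0.11) fell below 0. With single libraries left out, log2 fold changes that changed sign ranged from -0.18 to 0.11 for Ripk3, -0.12 to 0.15 for Mlkl, -0.094 to 0.074 for Mavs, -0.13 to 0.032 for Ddx3x, -0.21 to 0.0019 for Dhx9, -0.21 to 0.025 for Dnajc3, -0.086 to 0.27 for Ifi203, -0.11 to 0.13 for Jak1, -0.14 to 0.019 for Lgmn, -0.036 to 0.16 for Tnfrsf1a and -0.055 to 0.17 for Xiap. None of these 11 genes passed the threshold in any of these settings. The change of Zbp1 minus that of another gene ranged from 1.05 to 1.44 for Ddx58, 0.93 to 1.32 for Ifih1, 1.13 to 1.59 for Tlr3, 1.26 to 1.70 for Mlkl, 1.53 to 2.18 for Aim2 and 1.07 to 1.85 for Mavs, with an exact permutation p of 0.0286 or 0.0571, and from 0.93 to 1.37 for Dhx58, with p from 0.0571 to 0.0857. The fewer libraries leave 0.0286 as the smallest p, and for Eif2ak2 and Ripk3 it was reached whichever library was left out. Beyond the libraries named in the report, Casp1 did not pass with reads drawn down or endothelial scaling, Oas1g with reads drawn down, Irf7 with library weights or without the trend and Socs1 with library weights, whereas Gsdmd passed without 7N or 8N, Usp18 without 8N and Tnf with library weights or without 7N or 9L. No paired analysis was possible because the groups share only 1 number in the names of the mice (5N and 5L), while 6L and 6R are both treated, and a block on the number would rest the comparison on that 1 pair.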
